A study of Drosophila melanogaster with 2 samples.

Results

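The regions described here were 306 summits of Inv-eGFP binding, at 255 genes, that lay at autosomal genes with alternative promoters. A summit, the highest point of a peak, was taken when it lay within 500 bp of a transcription start site (TSS) of a protein-coding gene on 2L, 2R, 3L, 3R or 4, and when that TSS had no TSS of another gene diverging from it within 1000 bp. The outermost TSSs of the gene also had to lie more than 1000 bp apart. These 306 were 9.02% of the 3393 summits that the authors' larger pooled list held on the 6 chromosome arms, and 14.0% of the 2187 autosomal summits within 500 bp of a TSS. They fell on 2L (68), 2R (86), 3L (63), 3R (83) and 4 (6). The 788 summits that met the same rule at genes with TSSs at most 1000 bp apart, called single-promoter summits, served as the comparison, and the remaining 1093 lay at divergent promoters.

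Chromatin immunoprecipitation with sequencing was done on embryos of Drosophila melanogaster, taken whole at ages of 0 to 24 h, from a transgenic strain that carries an eGFP fusion of invected (inv) and was precipitated with an antibody to GFP. There was 1 group of 2 biological replicates, with no second genotype, treatment or stage, and whole embryos mix all tissues and all embryonic stages. Signal, the height that the authors gave each peak on a scale not stated in the sources used here, had a median of 132 in the pooled list. Library depth is unknown, and control libraries were not analysed here.

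Invected is a homeodomain transcription factor, the paralog of Engrailed, and acts in the posterior compartments of segments and appendages. Many fly genes start transcription at more than 1 promoter, and the alternative first exons can change the tissue, the stage or the protein that a gene serves. The promoters of broadly expressed fly genes often carry the DNA replication-related element (DRE), the binding word of the factor DREF, or the core-promoter word known as Motif 1, whereas promoters of developmentally regulated genes more often carry a TATA box, an initiator or GAGA repeats. The homeodomain of the Engrailed class binds words with the core TAATTA.

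A promoter was a run of TSSs with no gap above 500 bp, and the promoters of each gene were numbered in the direction of transcription. It was called occupied when a member summit had its nearest TSS there. Below are both promoters of 5 genes, those with the strongest summits among genes that also had an unoccupied promoter and lay on an arm whose sequence is printed here, shown because occupied and unoccupied promoters of the same gene differed in their DNA words. Each line has 170 bases before the TSS and the 30 bases that start with it, 5′ to 3′, from the RefSeq sequence of genome Release 6. Capitals mark the DRE core, TATCGA or its complement TCGATA.
bun, occupied: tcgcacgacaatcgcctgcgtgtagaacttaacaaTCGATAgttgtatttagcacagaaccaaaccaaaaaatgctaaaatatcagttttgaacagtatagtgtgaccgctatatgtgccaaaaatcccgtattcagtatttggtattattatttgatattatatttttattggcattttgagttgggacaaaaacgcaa
bun, unoccupied: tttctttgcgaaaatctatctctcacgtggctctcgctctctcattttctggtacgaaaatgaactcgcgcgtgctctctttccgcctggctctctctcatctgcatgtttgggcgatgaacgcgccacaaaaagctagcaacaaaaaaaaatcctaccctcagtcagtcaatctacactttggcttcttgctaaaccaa
CG9776, occupied: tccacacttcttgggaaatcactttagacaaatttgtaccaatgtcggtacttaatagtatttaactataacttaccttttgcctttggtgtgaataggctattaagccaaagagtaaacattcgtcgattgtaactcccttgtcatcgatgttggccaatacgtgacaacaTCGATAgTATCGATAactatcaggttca
CG9776, unoccupied: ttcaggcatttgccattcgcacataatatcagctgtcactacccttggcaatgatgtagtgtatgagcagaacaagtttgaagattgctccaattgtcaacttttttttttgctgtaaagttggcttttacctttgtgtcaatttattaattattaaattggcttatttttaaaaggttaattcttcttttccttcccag
pug, occupied: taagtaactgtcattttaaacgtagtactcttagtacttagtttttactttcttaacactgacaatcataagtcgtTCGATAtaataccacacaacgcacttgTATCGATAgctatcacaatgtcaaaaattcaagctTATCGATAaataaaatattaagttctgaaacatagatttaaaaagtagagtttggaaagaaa
pug, unoccupied: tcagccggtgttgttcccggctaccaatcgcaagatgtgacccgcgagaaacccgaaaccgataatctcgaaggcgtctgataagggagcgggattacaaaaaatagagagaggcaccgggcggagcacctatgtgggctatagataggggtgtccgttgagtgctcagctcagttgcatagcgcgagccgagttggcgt
Spn, occupied: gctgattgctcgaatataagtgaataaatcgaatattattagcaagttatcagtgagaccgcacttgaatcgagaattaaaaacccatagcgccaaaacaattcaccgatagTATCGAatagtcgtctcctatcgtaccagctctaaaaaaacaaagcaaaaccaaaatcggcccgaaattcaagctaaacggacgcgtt
Spn, unoccupied: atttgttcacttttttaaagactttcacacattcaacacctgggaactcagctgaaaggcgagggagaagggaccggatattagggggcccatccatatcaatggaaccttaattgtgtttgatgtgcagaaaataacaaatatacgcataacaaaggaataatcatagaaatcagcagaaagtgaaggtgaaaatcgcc
larp, occupied: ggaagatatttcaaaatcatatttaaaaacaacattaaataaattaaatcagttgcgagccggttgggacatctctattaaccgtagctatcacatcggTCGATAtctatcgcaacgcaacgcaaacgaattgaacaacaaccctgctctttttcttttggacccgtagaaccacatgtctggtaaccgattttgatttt
larp, unoccupied: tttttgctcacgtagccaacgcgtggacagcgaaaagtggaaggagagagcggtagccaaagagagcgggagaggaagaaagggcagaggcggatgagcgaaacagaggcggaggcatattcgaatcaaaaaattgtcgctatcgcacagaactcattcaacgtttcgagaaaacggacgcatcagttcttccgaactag
All 5 occupied promoters held the DRE core in these 200 bases and none of the 5 unoccupied ones did. The genes were taken from the top by signal and do not stand for all pairs: over 233 pairs, 43.8% of occupied promoters held the core in a longer window. In the pug promoter the word matched 5 times, in 3 stretches, and in CG9776 it matched 3 times, in the bases just after the TSS. The bun, Spn and larp promoters each had 1 match, centred upstream of the TSS. The occupied windows were chr2L:12546582-12546781 for bun, chr3R:4334042-4334241 for CG9776, chr3R:10696364-10696563 for pug, chr3L:2554263-2554462 for Spn and chr3R:28336411-28336610 for larp, and pug alone lay on the plus strand. The unoccupied windows were chr2L:12504803-12505002, chr3R:4331017-4331216, chr3R:10699487-10699686, chr3L:2536556-2536755 and chr3R:28326235-28326434, in the same order of genes.

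The 12 strongest members that overlapped a peak in the list of each replicate all lay at the first promoter of their gene. Of all 306 members, 169 lay at first promoters (55.2%), as did 90 of the 134 found in both replicates. Sox14, a transcription factor of the Sox family, led with a pooled signal of 1390 on 2R, 236 bp upstream of its first TSS. Its ranked peak had a signal of 549 in replicate 1 and 847 in replicate 2. In the next 11 the order of the replicates was the other way round. At bun (bunched), a transcriptional regulator of the TSC-22 family, the peak at 2L 12546561 to 12546939 had a pooled signal of 1386, with 1148 in replicate 1 and 240.1 in replicate 2. The promoters printed above left out the arm 2R, and with it Sox14, Gp150 and bdg, which ranked among the strongest pairs. The occupied promoter of Sox14 held no DRE core from 250 bp before to 50 bp after its TSS, while those of Gp150 and bdg did, and the unoccupied promoters of these 3 genes did not. Gp150, a transmembrane glycoprotein linked to Notch signalling, followed at 1079, and bdg, which encodes a transporter-like membrane protein, at 1029. CG9776, at 3R 4333930 to 4334298, had a signal of 989. The pug gene, which encodes an enzyme of folate metabolism, had 915, with its summit 25 bp downstream of the TSS.

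The rest of these 12 served several cell functions. Spn (Spinophilin, a scaffold of protein phosphatase 1) had a signal of 852 and larp (La-related protein, which binds RNA) had 783. TER94, the fly p97 ATPase that unfolds ubiquitinated proteins, had 753, and gzl (godzilla), a ubiquitin ligase of endosomes, had 736. NAT1, a translation factor related to eIF4G, had 699.9, and enc (encore), which is needed in oogenesis, had 689. The DRE core lay within 50 bp of the summit at 10 of the 12, the exceptions being Sox14 and pug. These 12 were taken from the top by signal. The share was 32.4% over all 306 members and 59.7% over the 134 found in both replicates. In pug the nearest match lay just outside that window.

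Signal was lower at members than at the comparison sets. Members had a median of 108, with quartiles of 78.4 and 241 and a range of 2.55 to 1390, while single-promoter summits had a median of 140 and divergent ones 187. In the ranked lists of the replicates the medians at members were 72.3 in replicate 1 and 46.1 in replicate 2, against 92.8 and 59.0 at single-promoter summits. The upper 50% of the pooled list by signal held 41.2% of members, against 52.03% of single-promoter summits and 63.6% of divergent ones. These signals are descriptions with no test, and the ranges overlapped almost entirely. Replicate 1 gave the higher ranked signal at 240 of the 289 members listed in both, and the signals of both replicates across those 289 had a Spearman rho of 0.627, which shares the pooled call and the promoter position and is a description.

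**Figure D1:**
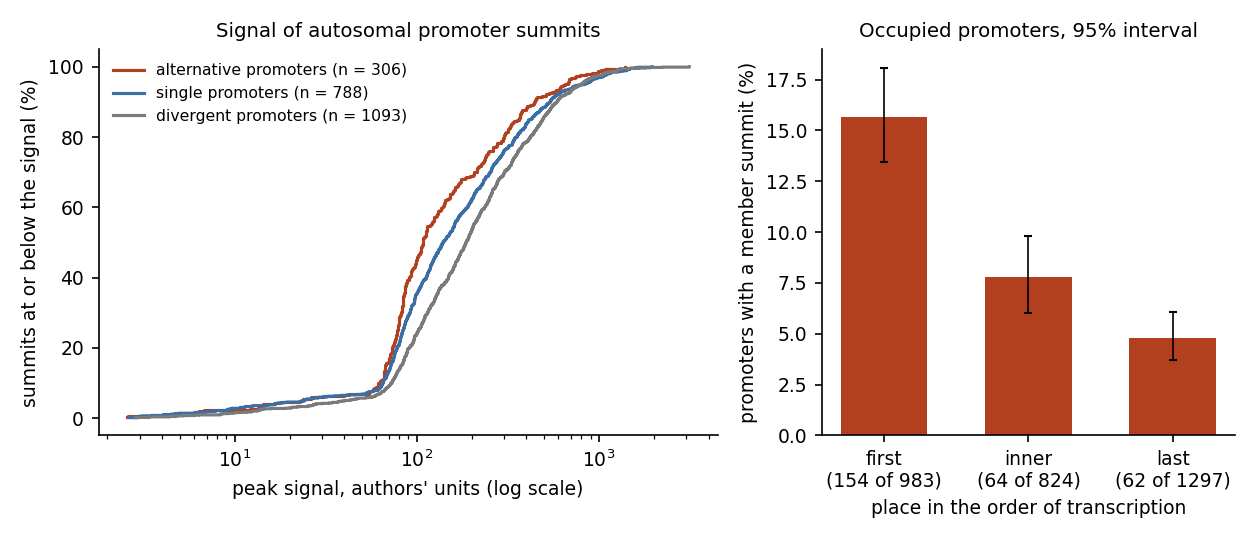
Left, the cumulative share of summits (y axis, percent) at or below each pooled signal (x axis, log scale) at alternative promoters, single promoters and divergent promoters; right, the percentage of first, inner and last promoters with a member summit, with 95% Clopper-Pearson intervals. The curve of the alternative promoters runs left of the other curves over most of the range above its lower quartile of 78.4, and 15.7% of first promoters were occupied against 4.78% of last ones.

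Fewer members than single-promoter peaks were found in both replicates. Of the 306 member peaks, 134 overlapped a peak in the thresholded list of each replicate (43.8%, 95% Clopper-Pearson interval 38.2 to 49.6%), against 423 of 788 single-promoter peaks (53.7%, interval 50.1 to 57.2%). Fisher's exact test gave p = 0.00374 (two-sided), with peaks as units, although 50 members overlapped another member and so were not independent. A further 107 members overlapped a peak of replicate 1 alone, 13 of replicate 2 alone and 52 of neither. In the upper 50% by signal the shares were 88.1% of members and 87.8% of single-promoter peaks (Fisher's exact p = 1).

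Members lay a little farther from their TSS, with no test of the distance. Their median distance was 76 bp, against 56 bp for single-promoter summits, and 57.5% were within 100 bp, against 70.9%. Upstream of the TSS lay 195 members (63.7%), against 563 single-promoter summits (71.4%), a difference that passed Fisher's exact test at p = 0.0159 (two-sided). That direction depended on the list. In the upper 50% by signal the upstream shares were 89.7% of members and 85.1% of single-promoter summits (Fisher's exact p = 0.238), and in the list of replicate 2 alone they were 88.3% and 76.0% (p = 0.000925). The lowest 2 signals among members, 2.55 at Mekk1, a kinase of the stress-activated MAP kinase cascade, and 2.59 at pAbp, belonged to second peaks that overlapped a stronger peak of the same gene, and 50 members overlapped another member.

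Genes with alternative promoters held summits more often than single-promoter genes, counted per gene and not per promoter. Of 1366 autosomal genes that could hold a member, 255 did (18.7%), against 720 of 6720 single-promoter genes (10.7%). The share grew with the number of promoters, from 15.2% of 855 genes with 2 promoters, through 21.8% of 308 with 3, to 29% of 200 with 4 or more. In the other 3 genes the TSSs formed 1 promoter, and none had a summit. Per promoter it did not grow: 9.34%, 9.28% and 8.27% of the promoters of those genes were occupied. Over all 3107 promoters of the 1366 genes that could hold a member, 9.01% were occupied. Counted that way, the share was below the 10.7% of single-promoter genes. Genes with a summit had a median span of 6080 bp between outermost TSSs and 5 annotated transcripts, against 4070 bp and 4 transcripts at the 1111 genes without one. These shares carry no test.

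Within genes, the first promoter was favoured. Member summits occupied 154 of 983 first promoters (15.7%), 64 of 824 inner ones (7.77%) and 62 of 1297 last ones (4.78%). In 924 genes both the first and the last promoter could hold a member, and of these 141 had a summit at the first alone, 41 at the last alone and 6 at both. The ratio of 3.44 passed an exact two-sided McNemar test over genes (p = 4.76e-14). It kept its direction and its call in each replicate's list, at 4.40 in replicate 2 alone and 4.38 in replicate 1 alone, but its size moved with signal. The ratio was 6.15 in the upper 50% by signal (exact p = 6.22e-13) and 2.16 in the lower 50% (exact p = 0.000296). Among members, the 169 at first promoters had a median signal of 137, the 69 at inner ones 86.2 and the 68 at last ones 103. The share in both replicates followed that order, with 53.3%, 28.99% and 35.3%.

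A minority of genes departed from it. In 101 genes the first promoter was unoccupied and a later one occupied, and in 30 of these the first promoter had a diverging TSS of another gene and so could hold no member. Stat92E, the transcription factor of the JAK-STAT pathway, had its summit of 679 at the second of 2 promoters, 1204 bp downstream of the first, with ranked signals of 483 and 191 in replicates 1 and 2. Its first promoter had 8.94 and 18.3. The heph gene, which encodes the polypyrimidine tract-binding protein of the fly, had its summit of 601 at the third of 7 promoters. Orai, the pore of the store-operated calcium channel, had 458 at the second of 3 promoters, with ranked signals of 292 and 176 there, against 5.11 and 48.9 at the first. The drn gene had 448 and jigr1, which encodes a putative DNA-binding protein, had 533, both at inner promoters. Ogdh, a subunit of the oxoglutarate dehydrogenase complex, had 372 at the second of 3 promoters. Eno (enolase) with 404 and PI31, a regulator of the proteasome, with 341 were cases in which the first promoter was divergent.

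In most genes 1 promoter was occupied: 232 of 255 had a single occupied promoter, 23 had more than 1 and only milt and MEP-1 had 3. Milt (Milton), the adaptor that links mitochondria to kinesin, had signals of 234, 124 and 513 at its first 3 promoters and no summit at the fourth. MEP-1, a zinc-finger protein that acts with the chromatin remodeller Mi-2, had 113, 61.6 and 240.2. Its second promoter, 560 bp from the first, had no ranked peak in replicate 2. Utx, the demethylase of histone H3 lysine 27, had summits of 452 and 577 at promoters 1260 bp apart, with similar ranked signals of 329 and 441 in replicate 1 and 122 and 132 in replicate 2. In larp and bun the occupied promoters were far from equal. The first larp promoter had 783 and the second, 899 bp away, 108, and the first bun promoter had 1386 and the seventh, 85355 bp away, 92.6. At the seventh bun promoter replicate 2 had no ranked peak. The ecdysone-induced nuclear receptor gene Eip75B had its summits at the last 2 of its 7 promoters. Promoter 6 had 2 summits, the stronger of 95.1, and promoter 7 had 1 of 83.7. In replicate 1, however, its unoccupied promoters 2 and 4 had ranked signals of 54.3 and 44.2, above the 38.7 at promoter 6. Promoter 7 had 75.2 in replicate 1 and 12.5 in replicate 2. In PAN3 the first promoter was shared with a diverging gene, and its ranked signals of 330.2 and 80.3 in replicates 1 and 2 were therefore not counted among members.

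**Figure D2:**
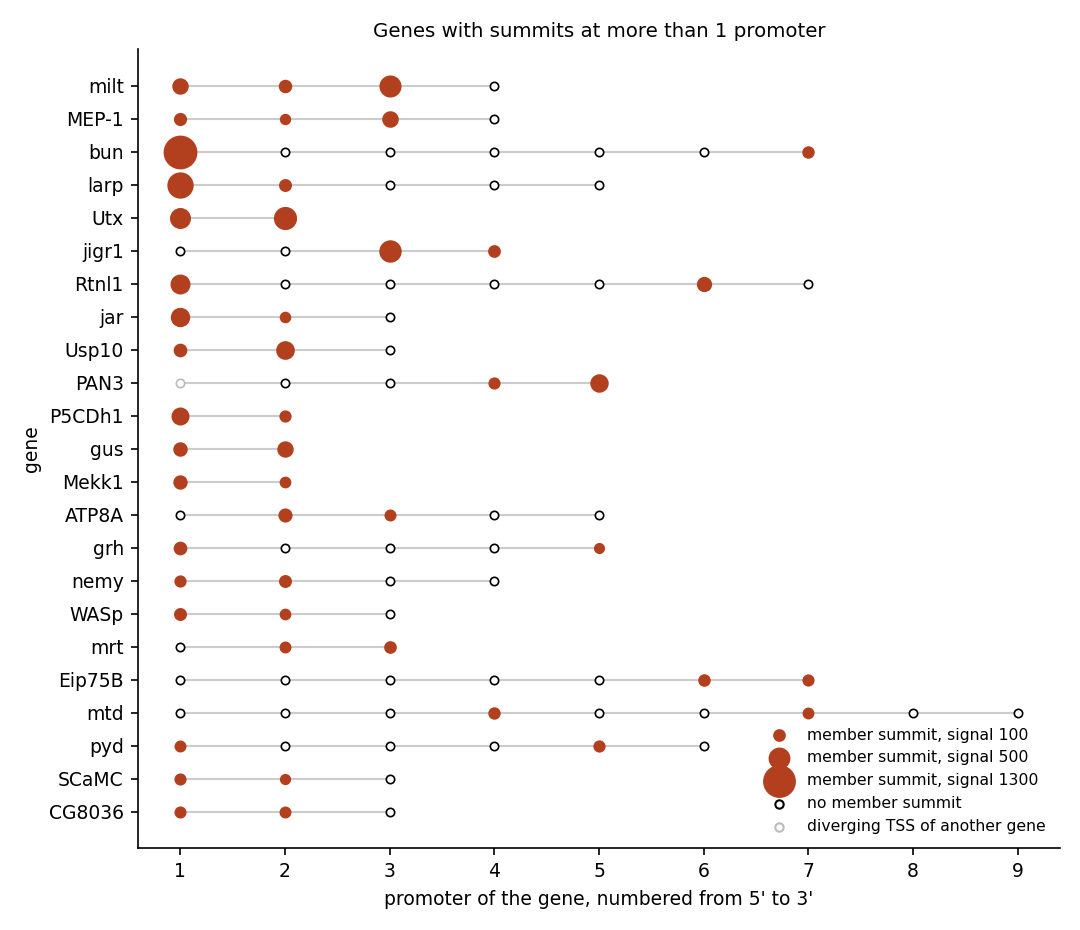
The 23 genes with more than 1 occupied promoter (y axis), with their promoters in the order of transcription (x axis). Filled points are occupied promoters, with an area that grows with the pooled signal of the strongest member summit there. Open points are promoters with no member summit, and the grey point is the divergent first promoter of PAN3. Summits at the same gene often differ in size, as at bun (1386 and 92.6), and Utx has points of like size (452 and 577).

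The contrast between promoters of the same gene was examined in 233 genes that had an occupied and an unoccupied promoter, 1 pair per gene. The promoters of a pair lay a median of 3862 bp apart (range 508 to 93257 bp). More transcripts were annotated at the occupied promoter in 115 genes, equal numbers in 67 and fewer in 51. The ranked lists, which also hold peaks that did not pass the authors' threshold, gave a signal at many unoccupied promoters. In replicate 1 the median was 73.7 at the occupied promoters, and it was 23.5 at the 193 unoccupied promoters with any ranked peak. In replicate 2 the medians were 52.3 at occupied promoters and 18.1 at 146 unoccupied ones. The median of each full ranked list was 12.7 and 12.9.

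Occupied and unoccupied promoters thus overlapped in signal across genes. Where both promoters of a gene had a ranked peak, the occupied one was mostly higher. The occupied promoter was higher in 187 of 193 pairs in replicate 1, with a median ratio of 3.91, and in 125 of 138 pairs in replicate 2, with a median ratio of 2.92. Occupied promoters were called from these libraries, so this order is a description. No ranked peak lay at the unoccupied promoter in 40 pairs in replicate 1 and 87 in replicate 2. The opposite case occurred in replicate 2, where 220 of 233 occupied promoters had a ranked peak. Of the 146 unoccupied promoters with one, only 138 were in pairs with both values. In the rest only the unoccupied promoter had a ranked peak, and the counts above leave these pairs out. At Spn, no ranked peak lay at the second promoter in either replicate, while its first had 584 in replicate 1 and 271 in replicate 2. E2f1, the cell-cycle transcription factor, had values close together, with 156 at the occupied promoter and 85.6 at the unoccupied one in replicate 1, and 56.4 and 57.4 in replicate 2. At pita the unoccupied promoter had 205 in replicate 1 and 121 in replicate 2, against 271 and 81.9 at the occupied one. Unoccupied thus means without a member summit, and not without signal. A ranked peak was counted at a promoter even where a TSS of another gene lay nearer to its summit. These signals, as at pita, can therefore include peaks assigned to other genes, and how many do was not examined.

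**Figure D3:**
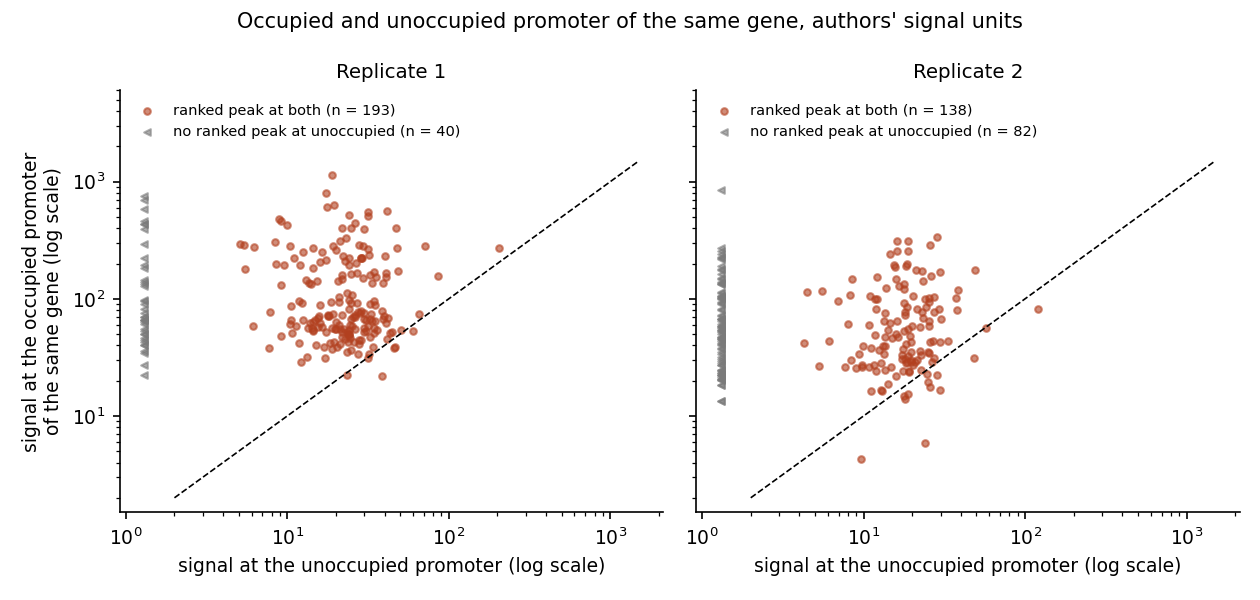
Signal in each replicate's ranked list at the occupied promoter (y axis, log scale) against the unoccupied promoter of the same gene (x axis, log scale), 1 point per gene, with the line of equality dashed; grey triangles at the left edge are genes with no ranked peak at the unoccupied promoter. Of the genes with both values, 187 of 193 in replicate 1 and 125 of 138 in replicate 2 lie above the line. Genes with no ranked peak at the occupied promoter, all in replicate 2, are not drawn.

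The DNA of the promoters differed within these pairs. In a window from 250 bp before to 50 bp after the TSS, on both strands, the DRE core TATCGA occurred in 102 of 233 occupied promoters (43.8%) and in 28 of 233 unoccupied ones (12.02%). It was in the occupied promoter alone in 89 genes and in the unoccupied one alone in 15 (exact two-sided McNemar test, adjusted p = 5.07e-13 over 9 words). The full DRE, TATCGATA, which contains the core, occurred in 43 occupied promoters and in 0 of the 233 unoccupied ones, where 3 counts of 233 would be a share of 1.29% and the Clopper-Pearson interval drawn in the plot of words reaches 1.57% (exact test, adjusted p = 1.02e-12). Motif 1, searched as GGTCACAC, occurred in 21 occupied promoters and in 1 unoccupied one (exact test, adjusted p = 3.29e-05). As a background, the 3107 promoters of genes that could hold a member, occupied ones included, held TATCGA in 14.3% of windows of the same length, TATCGATA in 2.41% and GGTCACAC in 2.22%. All 14309 autosomal promoters, divergent ones included, held them more often, in 24.0%, 7.29% and 6.64% of cases.

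For the other 6 words the test was not passed in this list and window. The TATA-box word TATAAA occurred in 36.1% of occupied and 31.3% of unoccupied promoters (exact test, adjusted p = 0.434), the initiator word TCAGT in 43.8% and 50.2% (adjusted p = 0.375), and GAGAGA in 25.3% and 30.9% (adjusted p = 0.375). The E-box CAGCTG occurred in 18.9% and 22.7% (exact test, adjusted p = 0.465), and GTATNTTT, the word of Motif 6, in 16.7% of each (adjusted p = 1). The homeodomain word TAATTA, which the Engrailed class binds, was in 17.6% of occupied and 18.9% of unoccupied promoters (exact test, adjusted p = 0.908), with 14.3% in the same windows of promoters of genes that could hold a member and 19.6% in those of all autosomal promoters. These are McNemar tests with Benjamini-Hochberg adjustment.

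For 3 of these 6 words a call depended on the list, the window or the pairs. In a window that began 100 bp before the TSS, TAATTA was in 8 of 233 occupied promoters (3.43%) and in 23 of 233 unoccupied ones (9.87%; exact test, adjusted p = 0.00917), so the homeodomain word was less frequent at occupied promoters there. TCAGT was less frequent at occupied promoters in the authors' conservative list, at 39.6% and 53.5% (exact test, adjusted p = 0.0259), and in the list of replicate 2 alone, at 36.5% and 55.6% (adjusted p = 0.00439). GAGAGA was less frequent where the occupied promoter was the upstream one of the pair, at 22.4% of occupied and 35.2% of unoccupied promoters (exact test, adjusted p = 0.0251), a division of the pairs made after the data were seen.

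Read from word to summit, 49 of the 75 promoters with TATCGATA in genes that could hold a member were occupied (65.3%), as were 24 of 69 with GGTCACAC (34.8%) and 115 of 444 with TATCGA (25.9%). Over all 3107 such promoters the share was 9.01%. First promoters that were occupied held TATCGA in 55.8% of 154 cases, against 12.5% of 829 unoccupied first promoters. At last promoters the shares were 29.03% of 62 occupied and 12.1% of 1235 unoccupied ones, and at inner promoters 17.2% of 64 and 9.74% of 760. In unoccupied promoters the share was thus close to the same at every place, and in occupied ones it was highest at the first.

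The contrast was not even over the pairs. Where the occupied promoter was the upstream one (165 genes), TATCGA was in 52.1% of occupied and 10.3% of unoccupied promoters (exact test, adjusted p = 6.72e-14). Where it was the downstream one (68 genes), the shares were 23.5% and 16.2% (adjusted p = 0.748), both from the exact McNemar test. For the other called words, too few downstream pairs held the word in only 1 promoter for the test to pass, so the missing calls there show nothing. TATCGATA was in 38 occupied and 0 unoccupied promoters of the upstream pairs, and in 5 and 0 of the downstream pairs (exact test, adjusted p = 0.555). Before adjustment this exact McNemar test gave p = 0.0625, the lowest value that 5 such genes can give. GGTCACAC was in 20 and 0 of the upstream pairs, and in 1 and 1 of the downstream pairs (exact test, adjusted p = 1). Whether the split differed between directions was tested for TATCGA alone. Among genes with the word in only 1 promoter of the pair, it was in the occupied one in 78 and the unoccupied one in 9 of the upstream pairs, and in 11 and 6 of the downstream pairs. These proportions differed by Fisher's exact test (two-sided p = 0.0160), a split that was chosen after the data were seen. Signal divided the pairs as well: with summits of the upper 50% alone, TATCGA was in 73.1% of 108 occupied and 15.7% of the unoccupied promoters, and with those of the lower 50%, in 23.4% of 145 and 12.4% (exact test, adjusted p = 0.0747). The part of signal in the difference between places was not tested.

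**Figure D4:**
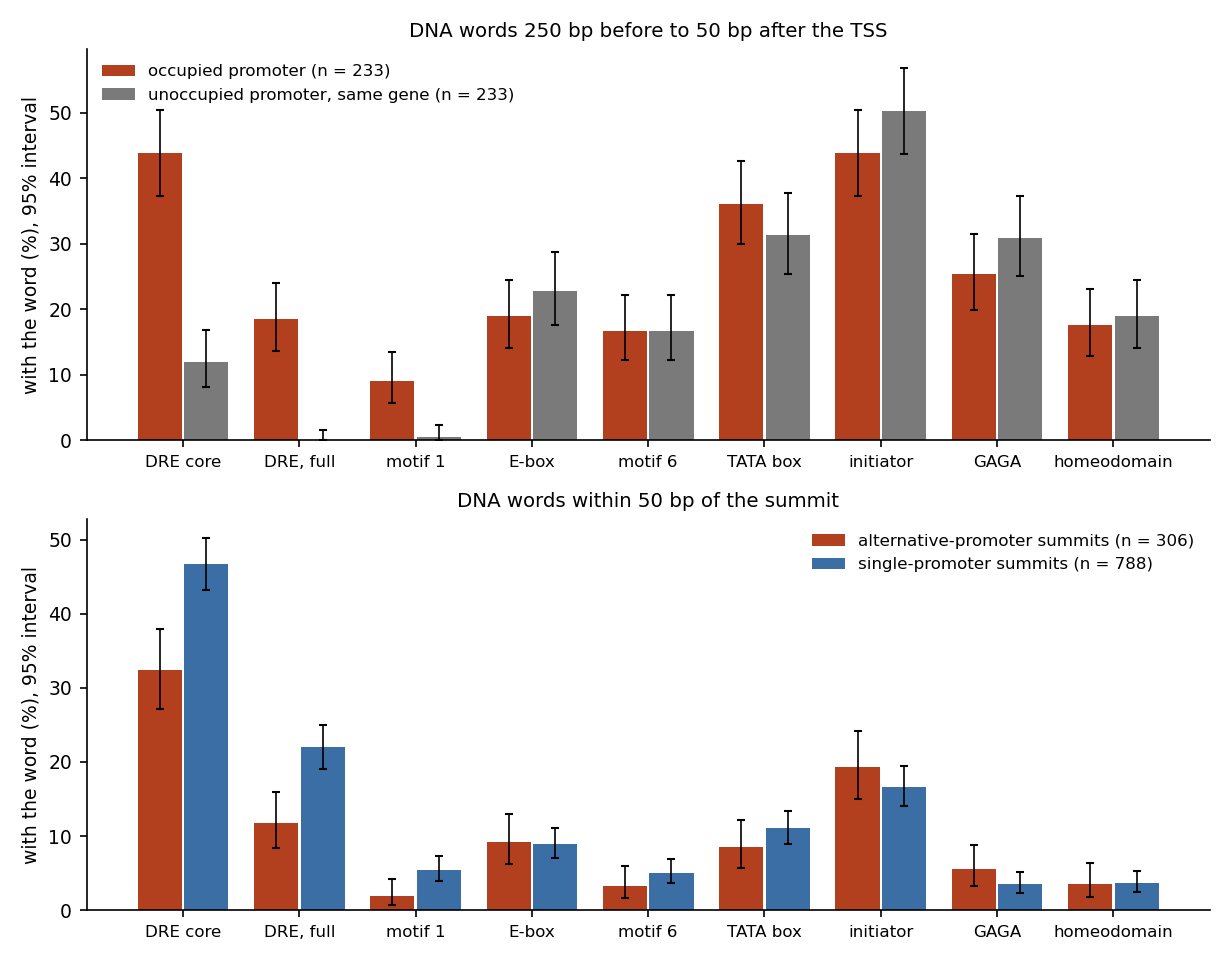
Percentage of sequences with each of 9 DNA words (y axis, 95% Clopper-Pearson intervals), by the name of the word (x axis). Above, promoters of the same gene that were occupied or unoccupied, with the DRE core at 43.8% and 12.02%; below, windows around alternative-promoter and single-promoter summits, with the DRE core at 32.4% and 46.7%.

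Around the summits themselves the DRE was less frequent at members than at single-promoter summits. The core lay within 50 bp of 99 of 306 member summits (32.4%) and of 368 of 788 single-promoter summits (46.7%; Fisher's exact test, two-sided, adjusted p = 0.000154 over 9 words). For TATCGATA the shares were 11.8% and 22.0% (exact test, adjusted p = 0.00035), and for GGTCACAC 1.96% and 5.46% (adjusted p = 0.0406), a call lost under every alternative run except a window of 1000 bp to the TSS. The call of TATCGATA was lost in the conservative list (-8.54 points), the upper 50% by signal (-9.85), the lower 50% (-5.93) and replicate 2 alone (-6.16). The words were also rarer around TSSs of genes that could hold a member, with no test and against a set of another kind. For these genes 1 TSS was taken for each of 3107 promoters, and promoters at which every TSS was divergent were left out. The same window there held TATCGA in 6.37% of cases, TATCGATA in 1.13% and GGTCACAC in 1.38%. Around all 16298 annotated autosomal TSSs, divergent ones included, the shares were 13.01%, 4.20% and 4.66%. The gap between these sets is therefore not a measure of alternative promoters alone. The lower share at members was not tested against these backgrounds. In 50-bp steps from the summit, the core occurred at 18.3% and 20.9% of members in the steps just before and just after it, and at 6.86% or fewer in every step farther out to 400 bp. At single-promoter summits the central steps had 29.6% and 30.1%.

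The difference at summits varied with the list. In the upper 50% by signal the core lay near 77 of 126 members (61.1%) and 277 of 410 single-promoter summits (67.6%), a difference of 6.45 points that missed the test (Fisher's exact test, adjusted p = 0.321). In the lower 50% it lay near 22 of 180 members (12.2%) and 91 of 378 single-promoter summits (24.1%, exact test, adjusted p = 0.00929). In the list of replicate 2 alone the shares were 48.1% and 56.5% (exact test, adjusted p = 0.313), and in replicate 1 alone 33.8% and 50.1% (adjusted p = 1.48e-05). The homeodomain word TAATTA lay within 50 bp of 11 members (3.59%) and 29 single-promoter summits (3.68%, exact test, adjusted p = 1), against 3.08% of all autosomal TSSs. GAGAGA, not called here (5.56% and 3.55%), was more frequent at members in the list of replicate 1 alone, at 6.90% and 3.03% (exact test, adjusted p = 0.0246), and within 100 bp of summits, at 12.7% and 6.47% (adjusted p = 0.00388). By place, 44.97% of members at first promoters, 15.9% at inner ones and 17.6% at last ones had the DRE core.

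**Figure D5:**
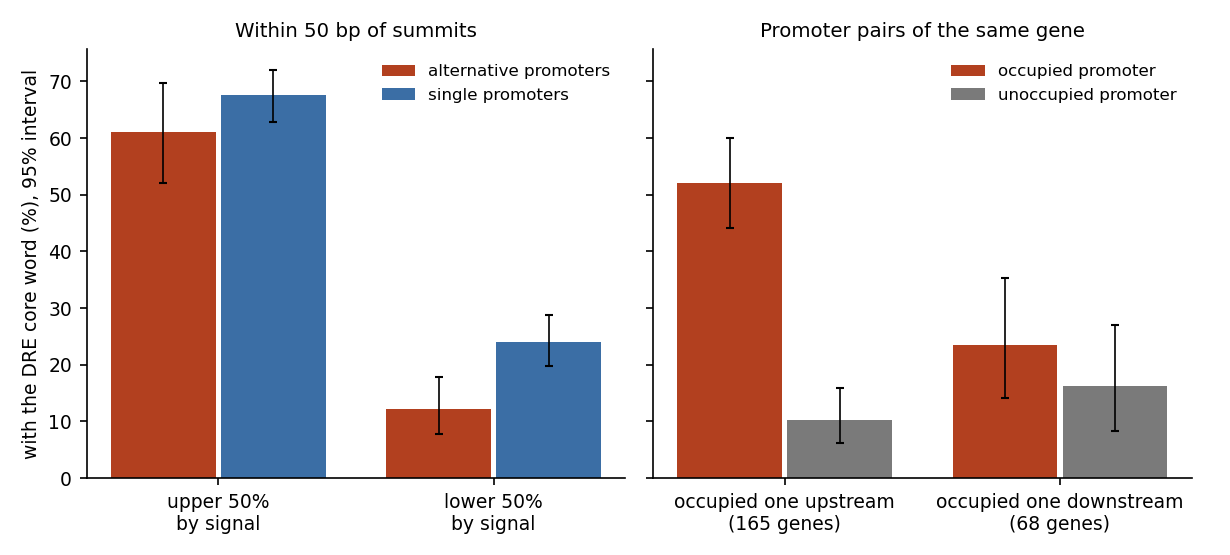
Percentage with the DRE core (y axis, 95% Clopper-Pearson intervals): left, within 50 bp of alternative-promoter and single-promoter summits in the upper and lower 50% of the pooled list by signal; right, in occupied and unoccupied promoters of the same gene, by whether the occupied one lay upstream or downstream. In the upper 50% the shares are 61.1% and 67.6%, in the lower 12.2% and 24.1%; in the upstream pairs they are 52.1% and 10.3%, in the downstream ones 23.5% and 16.2%.

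Members were found in every gene group that was listed, with no test. The shares are to be read beside the 18.7% over all genes that could hold one. The lists were chosen with earlier results of these data known, and the occupied share also rose with the number of promoters of a gene. Chromatin and transcription factors had 17 occupied genes of 45 (37.8%), among them Sox14, bun, Stat92E, gro (Groucho, a corepressor, signal 249), E2f1 (216) and ftz-f1, a nuclear receptor (317). In 8 of the 17 only later promoters were occupied, beside 101 of the 255 member genes as a whole. One was Mef2, the muscle transcription factor, with 168 at the last of 3 promoters. Its ranked signals there were 159 in replicate 1 and 16.7 in replicate 2, against 32.6 and 29.8 at its unoccupied second promoter. The gene sbb, which encodes a corepressor and spans 68535 bp between its outermost TSSs, had no member. Signalling genes had 8 of 19 (42.1%), led by Pvr, the PDGF and VEGF receptor (615), and tkv, the type I receptor for Dpp (369), both at the first promoter. InR, the insulin receptor, had none.

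RNA-binding and translation genes had 8 of 25 (32.0%). Atx2 (Ataxin-2, 680.2) was occupied at the first of 3 promoters, while heph and pAbp, the poly(A)-binding protein (245), were occupied at inner ones, and bru1, the translational repressor Bruno, had no member among 6 promoters. GTPase regulators and cytoskeletal genes had 9 of 40 (22.5%). Pak, a kinase downstream of Rac and Cdc42, had 554 and jar, myosin VI, had 368, both at the first promoter, whereas RapGAP1 had 139.6 at the last of 5. The RhoGAP gene cv-c had none.

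The remaining groups were near the overall share. Kinases and phosphatases had 4 of 23 (17.4%), with SNF4Agamma, a subunit of the AMP-activated kinase, at 215 on the first of 9 promoters, Cdk4 at 162 and for (foraging, a cGMP-dependent kinase) at 65.7, the last 2 at last promoters, and with no member at Ptp61F. Traffic and ubiquitin genes had 2 of 12 (16.7%), lqf (epsin, 451) and Cul3 (275), both at the first promoter, and Rab26 had none. Channels and neuronal genes had 5 of 24 (20.8%). Sema2a, a secreted guidance cue, had 297 at the last promoter, unc-13, which primes synaptic vesicles, had 109 at an inner promoter on chromosome 4, and Sema1a had 101 at the first, while Con (Connectin) had none. Of the 255 member genes, 202 were in none of these lists.

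At the edges of the rule, the member farthest from its TSS was at CG4174 (496 bp, signal 152) and the nearest summit left out was at CG8036 (511 bp, signal 31.9). The smallest span among member genes was 1006 bp at hyx, a subunit of the Paf1 complex, with a signal of 173, and the largest span left out was 973 bp at Trp1, with 683.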

How the data were processed

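Per the labels, anti-GFP chromatin immunoprecipitation was sequenced from 2 biological replicates, with chromatin sonicated to 200 to 800 bp. The authors deposited peak lists on dm6, thresholded and ranked by irreproducible discovery rate, per replicate and pooled. The signal of each peak is the authors' peak height, derived with a control per the deposited descriptions. The score is the deposited rescaling of the discovery rate, at most 1000 and at least 830 in the thresholded lists. Aligner, peak caller and software versions were not given in the sources used here.

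Summits of the larger pooled list were assigned to the nearest TSS of protein-coding transcripts in Ensembl release 115. A tied TSS of another gene, found at 12 members, was settled by the order of gene IDs. Sequence came from the Release 6 genome. A replicate overlap was at least 1 bp. Replicate signals at a promoter are the highest ranked peak with its summit within 500 bp of a TSS of that promoter. That promoter had to be the nearest among those of the same gene, and TSSs of other genes were not considered. Each pair took the occupied promoter with the strongest summit and the unoccupied one with the most transcripts. Words were searched on both strands. Fisher's and McNemar's exact tests were two-sided, with Benjamini-Hochberg adjustment over the 9 words and a threshold of 0.05, in Python 3.11.15 with scipy 1.17.1, numpy 2.4.6 and matplotlib 3.10.9, and were tested on simulated data. Their p-values and the 95% intervals take peaks or genes as units, so variation between embryo collections is not measured.

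Genes named were those of the 12 strongest members found in both replicates, the 6 with the most occupied promoters, the 8 strongest with an unoccupied first promoter, up to 3 strongest and 1 unoccupied gene per list, and those at the edges of the rule. Gp150 to enc come under the first of these. E2f1, pita, gro, ftz-f1, Mef2, Eip75B and PAN3 were named after their values were seen. A gene that the rule also names is not reported here. The members, lists and words were chosen with earlier results of these data known.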

Additional observations from a re-analysis of the deposited data

How the results depend on the processing

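The first-to-last ratio, 6.15 in the upper and 2.16 in the lower 50% by signal, and the call of TATCGA in the promoter pairs kept direction and call in each replicate's list, the conservative pooled list, the upper 50% by signal and with other windows, gaps and spans. The lower 50% by signal and the split of pairs by direction were added after the data were seen. There TATCGA differed by 11.0 points in the lower 50% and 7.35 points in the downstream pairs, neither past the threshold, and 1 word was called in the lower 50% where 3 were called in all pairs. In 3 alternatives 4 words were called, with a gain of TCAGT in the conservative list (-13.8 points) and replicate 2 alone (-19.05), and TAATTA with windows of 100 bp before the TSS (-6.44); GAGAGA (-12.7) was gained in the upstream pairs. In the downstream pairs CAGCTG (5.88), TCAGT (1.47), GAGAGA (11.8) and TAATTA (1.47 points) changed sign. With windows of 100 bp before the TSS, CAGCTG (0.858) and TATAAA (-2.15) did. TAATTA turned to 0.629 in the conservative list, 6.48 in the upper 50%, 0.844 with 1 summit per gene, and 1.38 to 3.97 in single replicates.

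Against single-promoter summits the differences varied between lists. TATCGA at summits differed by -7.77 points in the conservative pooled list, -6.45 in the upper 50% and -16.3 to -8.47 in single replicates, of which only replicate 1 passed. The words called, 3 in the full list, numbered 0 in the conservative pooled list and the upper 50%, 0 to 3 in single replicates and 1 in the lower 50%. The upstream share differed by -0.594 points in the conservative pooled list, 4.56 in the upper 50% and -12.95 to 12.3 in single replicates. The share in both replicates differed by -0.222, 0.290 and -12.99 to -2.48 points in the same lists, and by -3.89 in the lower 50%. The occupied share of genes was 12.6% in the conservative pooled list, 8.71% in the upper and 11.3% in the lower 50%, and 10.03 to 17.7% in single replicates. The ratio of median signals, members over single, was 0.774, and 1.04 in the upper 50% and 0.697 to 1.03 in single replicates. GAGAGA at summits became a call in replicate 1 alone (3.87 points) and with 100 bp around summits (6.27). Uncalled words at summits also changed sign. CAGCTG did with 1000 bp to the TSS (-0.960), 1 summit per gene (-0.425), 100 bp around summits (-2.34), the lower 50% (-2.33) and single replicates (-0.489 to 2.23). GTATNTTT did in the lower 50% (1.03), TATAAA in single replicates (-4.54 to 0.245), and TCAGT in the conservative list (-0.630), the upper 50% (-4.99) and single replicates (-4.78 to 1.59). TAATTA did with 1000 bp (0.00426), spans over 2000 bp (0.385), 1 summit per gene (0.172), the lower 50% (0.397) and single replicates (-2.99 to 0.386). The cause of these changes was not tested, and unknown depth limits what lists of weak peaks can show. No paired analysis was possible because the samples form 1 group.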
